A study of Mus musculus with 13 samples.

Results

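Potassium channel genes are described here in the cortex of APPPS1 mice with and without Apoe. The genes were chosen by name, as every Kcn gene of a channel family (Kcna to Kcne, Kcnf, Kcng, Kcnh, Kcnj, Kcnk, Kcnma, Kcnmb, Kcnn, Kcnq, Kcns, Kcnt and Kcnv, each followed by a number), leaving out names that end in os. Of 20971 genes measured, 87 had such a name, and the 58 whose mean over the 13 libraries reached 0.5 RPKM were kept. RPKM scales the reads of a gene by its length and by the mapped reads of the library, so levels can be compared between genes. Of the others, 28 lay below that level and 1, Kcnd3os, ended in os. Just inside the threshold were Kcnk9, with a mean level of 0.554 RPKM, and Kcnk10, with 0.660 RPKM. Just outside it were Kcnn3, with 0.440 RPKM, and Kcnh6, with 0.431 RPKM.

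RNA was sequenced from the cortex of C57BL/6 mice aged 6 months. The APPPS1 group held 6 libraries and the APPPS1;Apoe-/- group held 7, which the series' design counts as separate mice. Animals of both groups carry the APPPS1 transgenes, mutant human genes for amyloid precursor protein and presenilin driven by the Thy1 promoter, which is active mainly in neurons. The groups differ in Apoe, the gene for apolipoprotein E, which carries lipids between brain cells. Mice without the transgenes were not analysed here, so every value belongs to a cortex labelled as carrying them. Amyloid itself was not measured in the values used here. A change is the level on the log2(RPKM + 0.5) scale in the group without Apoe less that in the APPPS1 group. Such changes understate the change of weakly expressed genes. A gene was called changed at an adjusted p under 0.05 in limma, a linear model fitted over all genes, with Benjamini-Hochberg adjustment over the 13343 genes tested.

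Potassium channels let potassium leave or enter cells along its gradient, and so set the resting potential, end action potentials and shape firing. Voltage-gated pore subunits assemble as tetramers and can be modified by electrically silent subunits and by small auxiliary subunits. Inward rectifiers and tandem-pore leak channels work near rest, in neurons and in glia, and astrocytes use inward rectifiers to clear potassium after activity.

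All these pores share a short selectivity filter, which strips water from potassium ions. It is known for a glycine, tyrosine, glycine signature, with phenylalanine at the middle position in some families. The coding stretches around the filter are shown for some of the genes that the results turn on, to show how the sodium-activated, voltage-gated and tandem-pore channels differ there. They were read from the GENCODE release 21 transcripts on mm10, in the sense of the gene, with the filter codons in capitals.
Kcnt1: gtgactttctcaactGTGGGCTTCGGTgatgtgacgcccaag
Kcnt2: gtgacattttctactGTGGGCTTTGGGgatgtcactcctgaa
Kcnd1: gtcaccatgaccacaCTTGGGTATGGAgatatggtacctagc
Kcna1: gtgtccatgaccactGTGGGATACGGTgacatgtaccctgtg
Kcnk2, first pore: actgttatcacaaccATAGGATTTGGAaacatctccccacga
Kcnk2, second pore: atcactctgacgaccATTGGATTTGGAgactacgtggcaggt
Kcnk1, first pore: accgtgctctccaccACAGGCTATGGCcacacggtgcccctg
Kcnk1, second pore: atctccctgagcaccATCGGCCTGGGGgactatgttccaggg

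The Kcnt1 stretch lies in exon 11, at chr2:25894355-25894396 on the plus strand. That of Kcnt2 lies in exon 9, at chr1:140425266-140425307 on the plus strand. The Kcna1 stretch is at chr6:126642213-126642254 on the minus strand. In Kcnd1 the printed stretch crosses from exon 1 to exon 2, so that its 42 bases span chrX:7824944-7831193 on the plus strand. Both Kcnk2 stretches cross an exon boundary likewise, over chr1:189258876-189295612 and chr1:189243025-189256607 on the minus strand. In Kcnk1 the first stretch spans chr8:125995796-126025034 and the second lies at chr8:126025317-126025358, both on the plus strand.

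The filter motif was searched in frame and on the coding strand only, as GGNTANGG, the tyrosine form, or GGNTTNGG, whose middle codon can be phenylalanine, each directly after a codon with T as its middle base. One or the other was found in 52 of the 57 protein-coding members (91.2%), against 711 of 12625 coding genes tested (5.63%). The forms exclude each other at a given place, and GGNTTNGG was found in 4.09% of all coding genes and GGNTANGG in 1.66%. Every voltage-gated pore gene (23 of 23), every silent subunit (7 of 7) and every inward rectifier (11 of 11) held a match. Among the calcium- and sodium-activated genes 5 of 7 held one. The auxiliary subunits Kcnmb2 and Kcnmb4 did not, nor did either KCNE gene. Of the tandem-pore genes 6 of 7 held one, each of them 2 times, these proteins having a pair of pore loops. Kcnk1 was the exception, since its pores were found only as GGNTANGG after any codon and as GGNCTNGG, and are the pair printed for it. Kcnt1, Kcnt2, Kcnj8, Kcnj11 and the 5 EAG, ERG and ELK genes carried the GGNTTNGG form alone. So did both pores of Kcnk2 and Kcnk13, while the other tandem-pore genes with a match held each form once.

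Apoe, the deleted gene, ran from 462.6 to 670.4 RPKM in the APPPS1 libraries and from 4.01 to 6.35 RPKM in the libraries without Apoe, and the genotype in the table was that of the labels in 13 of 13. Alignments numbered 28402328 to 77005806 per APPPS1 library and 18455493 to 34538031 per library without Apoe, so that group was sequenced less deeply. APPPS1;Apoe-/- replicates 2 and 5 stood apart with App at 105.6 and 115.6 RPKM and Thy1 at 52.2 and 56.9 RPKM. The other libraries had at least 175.9 RPKM of App and at least 172.2 RPKM of Thy1, whose promoter drives the transgenes. Whether the transgenes were expressed alike in all libraries was not tested. Results below are given without these libraries where that matters. Neuronal markers were high and none of 8 was called (summed level 3276 to 3834 RPKM in APPPS1, 3267 to 4129 RPKM without Apoe). Of 13 microglial markers 9 were lower without Apoe, with sums of 771 to 918 RPKM against 291 to 608 RPKM. The lowest sums were those of APPPS1;Apoe-/- replicates 2 and 5, at 291 and 335 RPKM. The rest of that group had 543 to 608 RPKM. Among 9 oligodendrocyte markers 4 were higher, with sums of 863 to 1210 RPKM against 974 to 1543 RPKM. Striatal markers, which a cortical dissection can take along, summed to 338 to 828.6 RPKM against 441 to 935 RPKM, and 1 of 14, Pde10a, was called, as higher. Markers of upper and deep cortical layers summed to 136 to 187 RPKM against 183 to 223 RPKM, and 1 of 10 was called, as higher. Those of hippocampus and thalamus summed to 63.0 to 163 RPKM against 67.3 to 107 RPKM, and 1 of 7 tested was called, as lower. The part of such regional differences in the channel values was not tested. No marker of any of the 12 marker lists was at 0 in all libraries. In bulk tissue, fewer cells of a type and less RNA per cell cannot be told apart, and this holds for every gene below.

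The potassium channel repertoire was close to the same in both groups. The 58 genes summed to 283.6 ± 7.64 RPKM (SD, n = 6) in APPPS1 and 289.6 ± 6.08 RPKM (SD, n = 7) in cortex without Apoe, and the ranges of these sums overlapped (273.7 to 295.9 and 280.4 to 296.4 RPKM). Kcnt1 and Kcnd1 fell and no member rose, so that 2 of 58 were called (3.45%), where 8.23% of all genes tested were called, 4.74% as lower and 3.48% as higher. Before adjustment 13 members (22.4%) had p under 0.05, against 25% of all genes. The largest change of a member, that of Kcne1l, was -0.39 on the log2 scale. None reached 0.5 in size, which 334 of 13343 genes (2.50%) did. The 95% interval of the change lay within 0.5 of 0 for 56 of 58 members (96.6%) and for 90.3% of all genes, on the log2(RPKM + 0.5) scale of the fit with genotype as its single term. Fits with a covariate had wider intervals for some members, among them Kcnk2 and Kcnt2 with the number of alignments as a term (0.36 ± 0.14 and 0.36 ± 0.12, SE). The median size of change was 0.088 for the members and 0.091 for all genes. The libraries of one group spread by a median SD of 0.149 log2 units among the members and 0.132 among all genes.

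**Figure D1:**
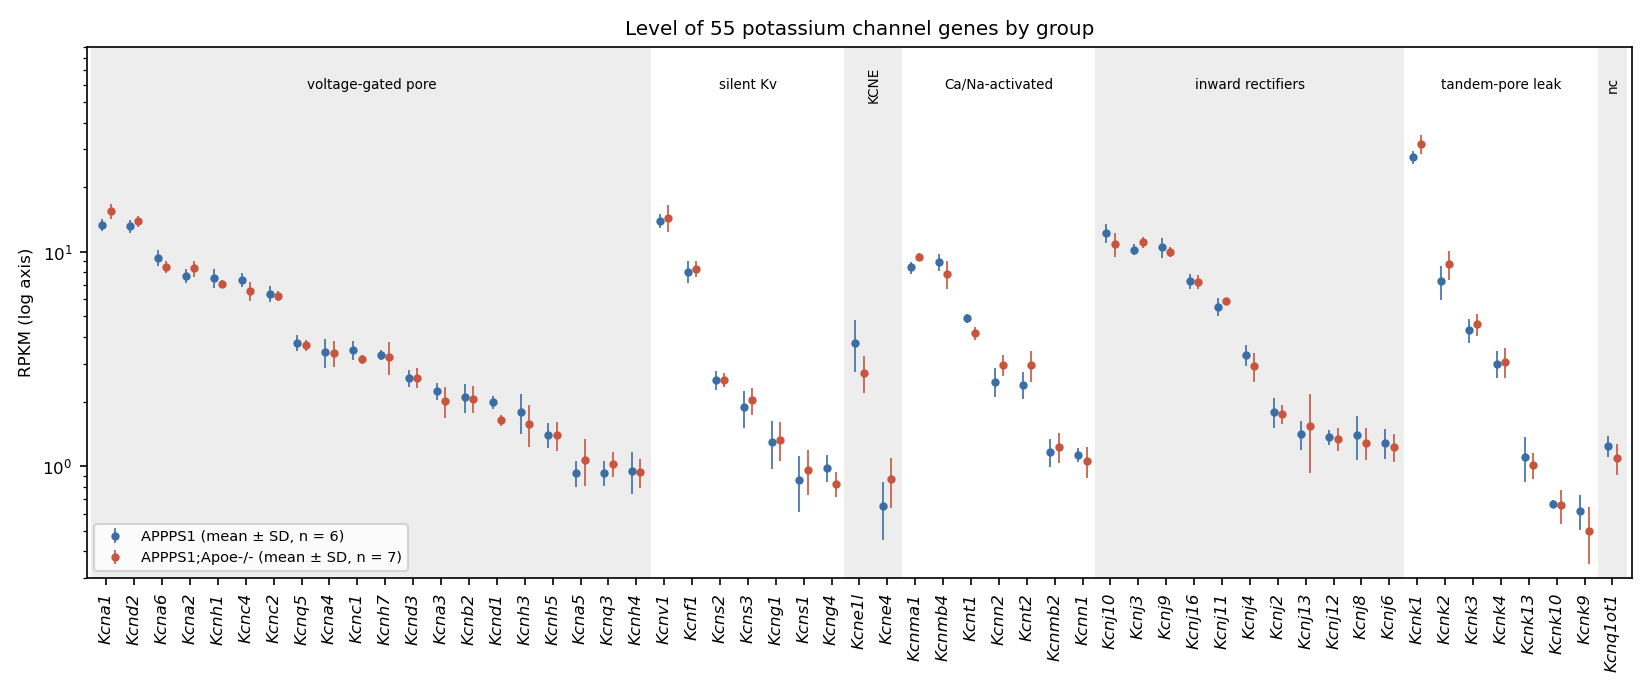
Mean level of 55 of the 58 genes in RPKM (log axis) with its SD, by group (blue, APPPS1, n = 6; red, APPPS1;Apoe-/-, n = 7), ordered by class and by level; KCNE marks the single-span auxiliary subunits and nc the non-coding Kcnq1ot1. Levels run from about 0.554 RPKM for Kcnk9 to 29.9 RPKM for Kcnk1, and the groups lie close together throughout.

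The called genes are both pore-forming subunits. Kcnt1 encodes Slack, a channel opened by intracellular sodium that contributes to the slow afterhyperpolarization of neurons. Its level was 4.66, 4.79 and 5.22 RPKM (lowest, median, highest) in the APPPS1 libraries and 3.87, 4.12 and 4.58 RPKM in the libraries without Apoe. Every library without Apoe lay below every library with it. The mean fell by 14.8%, from 4.89 ± 0.246 RPKM (SD, n = 6) to 4.16 ± 0.293 RPKM (SD, n = 7), a log2 change of -0.21 ± 0.05 (SE; limma, adjusted p = 0.0258). Without the libraries of low App the change was -0.24 (limma, adjusted p = 0.0316).

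Kcnd1 encodes Kv4.1, a subunit of the fast-inactivating A-type current that delays firing. It had 1.80, 1.95 and 2.16 RPKM in APPPS1 and 1.53, 1.65 and 1.79 RPKM in libraries without Apoe (lowest, median, highest). The groups did not overlap here either, though the nearest values, 1.80 and 1.79 RPKM, almost touched. The mean fell by 17.6%, from 1.98 ± 0.135 RPKM (SD, n = 6) to 1.63 ± 0.0945 RPKM (SD, n = 7), a log2 change of -0.22 ± 0.06 (SE; limma, adjusted p = 0.0281). Without the low-App libraries the size stayed at -0.22 but the call was lost (limma, adjusted p = 0.0644). These were 2 of 58 members without overlap between the groups (3.45%), against 3.72% of all genes, and both were lower without Apoe, as were 2.17% of all genes.

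Both calls sat near the threshold, and several alternatives took their adjusted p above it. Leaving out APPPS1 replicate 1 (adjusted p = 0.0620), APPPS1 replicate 2 (0.0625), APPPS1;Apoe-/- replicate 1 (0.0522) or APPPS1;Apoe-/- replicate 6 (0.0513) took Kcnt1 out of the calls of limma. For Kcnd1 the same held for APPPS1 replicates 1 (0.0665), 4 (0.0645) and 6 (0.0533) and for APPPS1;Apoe-/- replicate 1 (0.0549). With the number of alignments in the limma fit the changes were -0.22 for Kcnt1 (adjusted p = 0.137) and -0.25 for Kcnd1 (0.105), as large as before but not called. With the mean level of the striatal markers in the fit they were -0.20 (0.107) and -0.21 (0.117). Centring each library on its median gene gave -0.18 for Kcnt1 (0.0436) and -0.19 for Kcnd1 (0.0503). Quantile normalization gave -0.18 for Kcnt1 (limma, adjusted p = 0.0435) and -0.17 for Kcnd1 (0.0873).

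**Figure D2:**
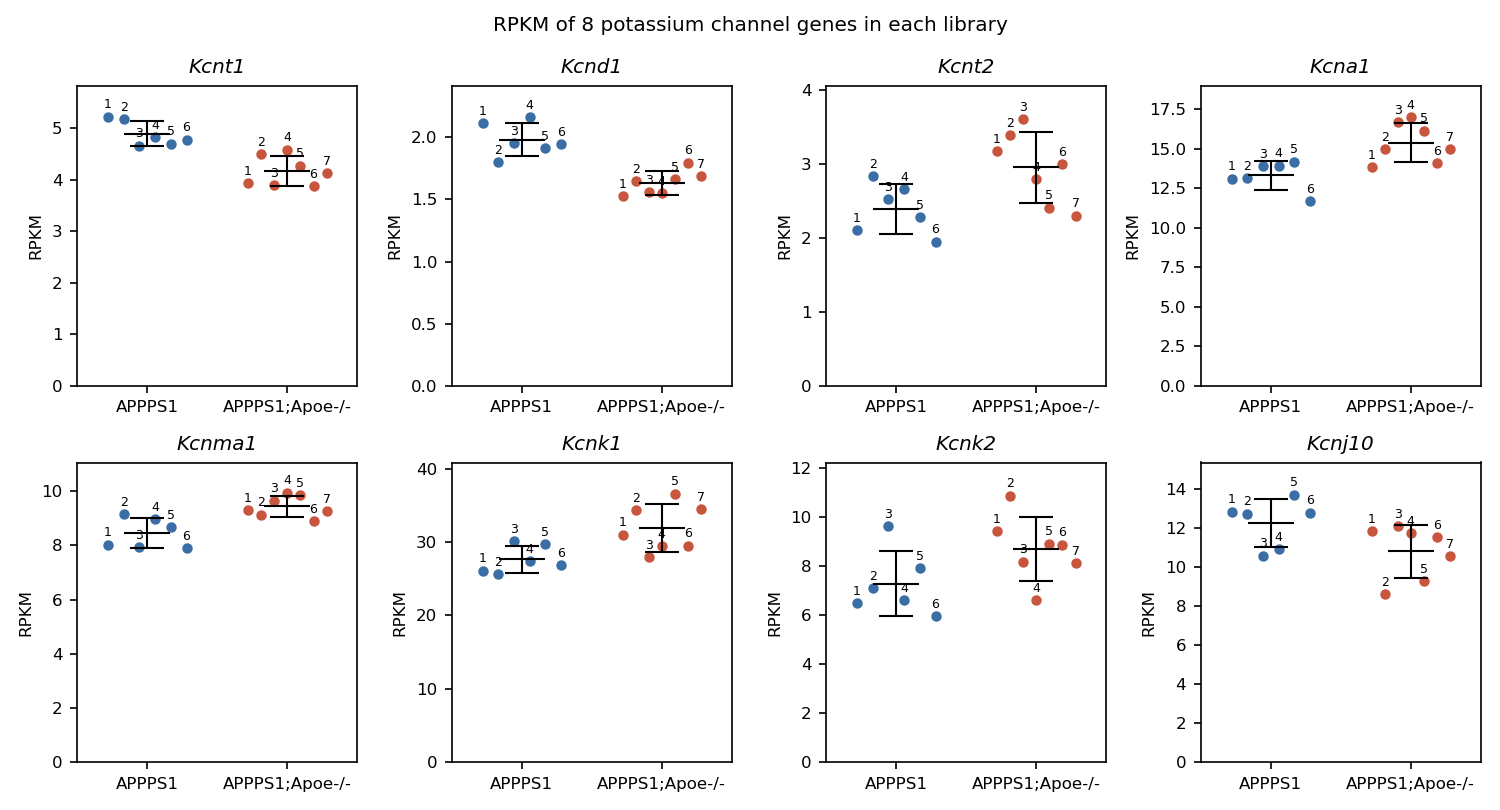
Level of 8 potassium channel genes in RPKM in each library, numbered by replicate, with the mean and SD of each group (bars; blue, APPPS1, n = 6; red, APPPS1;Apoe-/-, n = 7); axes start at 0. Only in Kcnt1 and Kcnd1, of the 8 genes drawn, does every red point lie below every blue one.

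Kcnt2 encodes Slick, the partner of Kcnt1 in sodium-activated channels, and shares the filter form printed above. It had 1.95, 2.41 and 2.84 RPKM in APPPS1 and 2.31, 3.01 and 3.61 RPKM in libraries without Apoe (lowest, median, highest). The groups overlapped, and the log2 change of 0.25 ± 0.10 (SE) did not pass (limma, adjusted p = 0.121). Its estimate had the opposite sign to that of Kcnt1, and the difference between these genes was not tested. Their summed level was 7.28 ± 0.445 RPKM (SD, n = 6) and 7.12 ± 0.506 RPKM (SD, n = 7).

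The calcium-activated channels close the same class, in which 1 of 7 genes, Kcnt1, was called. Kcnma1 encodes the large-conductance BK pore, which speeds repolarization after calcium entry. It had 7.89, 8.35 and 9.14 RPKM in APPPS1 and 8.90, 9.29 and 9.94 RPKM in libraries without Apoe. The ranges overlapped narrowly, and the log2 change was 0.15 ± 0.05 (SE; limma, adjusted p = 0.0695). With the libraries centred on the median gene it was 0.18 and called as higher (adjusted p = 0.0434), and with quantile normalization likewise (0.17, adjusted p = 0.0435). Those were 2 of 28 alternatives. Without the low-App libraries the change was 0.15 (limma, adjusted p = 0.140), and with the number of alignments in the fit 0.11 (0.372).

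Kcnn2 encodes SK2, a small-conductance channel opened by calcium through bound calmodulin. It had 2.18, 2.39 and 3.19 RPKM in APPPS1 and 2.54, 3.02 and 3.42 RPKM in libraries without Apoe, with a log2 change of 0.22 ± 0.08 (SE; limma, adjusted p = 0.107). The overlap came from APPPS1 replicate 5, at 3.19 RPKM, and without it the change was 0.29 and called (adjusted p = 0.0284). Kcnn2 was called in 2 of 28 alternatives, the other being quantile normalization (0.27, adjusted p = 0.0359). Without the low-App libraries its change was 0.25 (limma, adjusted p = 0.122), and with the number of alignments in the fit 0.16 (0.470). The BK auxiliary subunit Kcnmb4, the main beta subunit of neurons, averaged 8.95 ± 0.785 RPKM (SD, n = 6) and 7.88 ± 1.19 RPKM (SD, n = 7), and was not called (adjusted p = 0.203). Kcnmb2, a beta subunit that inactivates BK channels, and the SK subunit Kcnn1 averaged between 1.06 and 1.23 RPKM in each group, with adjusted p of 0.750 and 0.606.

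**Figure D3:**
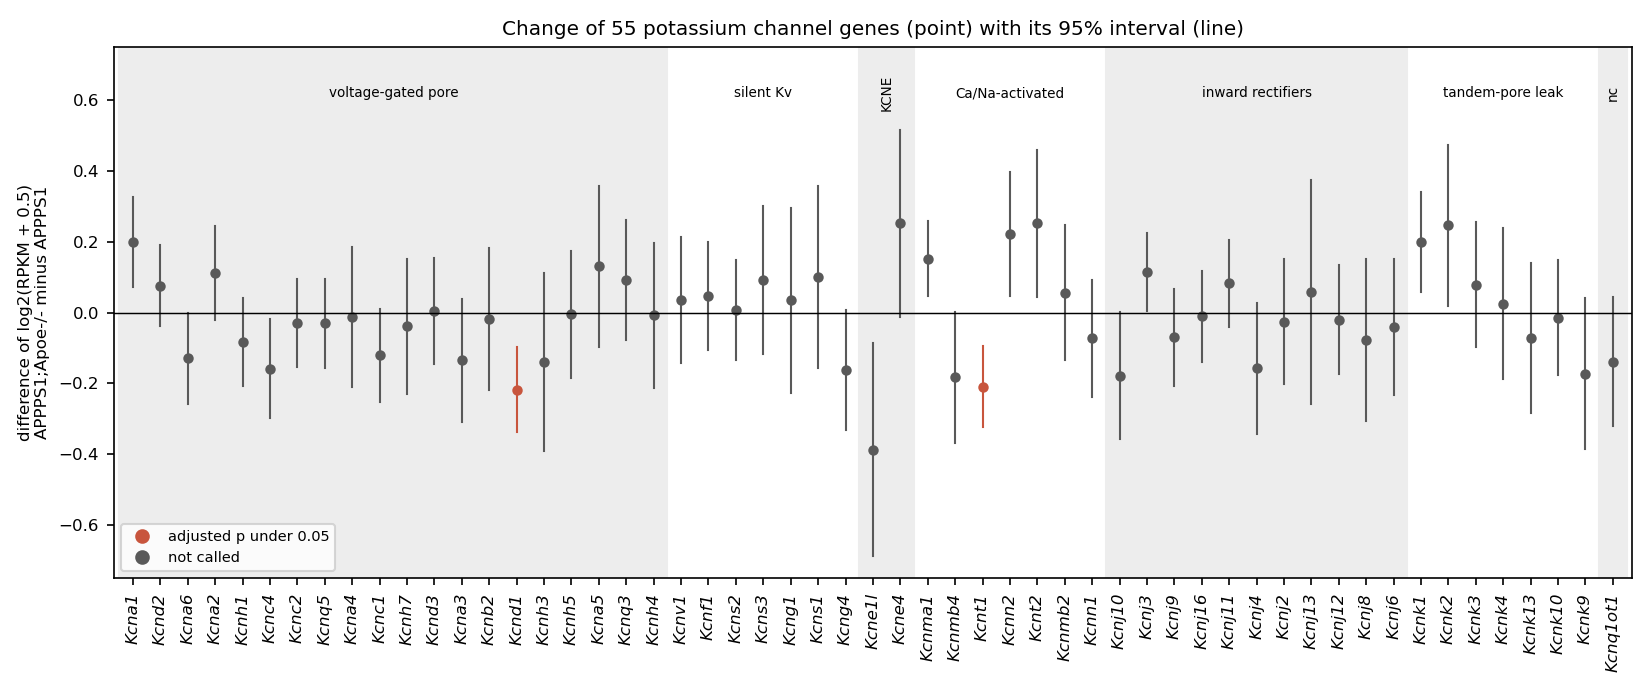
Change of the same 55 genes, as the difference of log2(RPKM + 0.5) between APPPS1;Apoe-/- and APPPS1 (points) with its 95% interval (lines), in the order of the plot of levels. Kcnd1 and Kcnt1, in red, were called; the estimates lie between -0.39 and 0.25.

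Voltage-gated pore subunits were the largest class, with 23 genes. Only Kcnd1 among them was called (4.35%), and their summed level was 117.9 ± 3.55 RPKM (SD, n = 6) in APPPS1 and 119.4 ± 4.21 RPKM (SD, n = 7) in cortex without Apoe. Estimates were below 0 for 15 genes and above 0 for 8, with a median of -0.017, close to the -0.008 of all genes.

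In the Shaker family, whose channels sit along axons and hold down excitability, 0 of 6 genes were called and 2 had an unadjusted p under 0.05. Kcna1 encodes Kv1.1 and was, at 14.4 RPKM on average, the highest voltage-gated member. It had 11.7, 13.5 and 14.2 RPKM in APPPS1 and 13.9, 14.998 and 17.0 RPKM in libraries without Apoe. The libraries without Apoe were mostly higher, with some overlap, and the log2 change of 0.20 ± 0.06 (SE) narrowly missed the threshold (limma, adjusted p = 0.0518). It passed, as higher, with the libraries centred on the median gene (0.23, adjusted p = 0.0336), and on leaving out APPPS1;Apoe-/- replicate 1 (0.0395) or replicate 6 (0.0458). Those were 3 of 28 alternatives. Without the low-App libraries the change of Kcna1 was 0.19 (limma, adjusted p = 0.121). With the number of alignments in the fit it was 0.23 (0.146), and with the striatal marker level 0.20 (0.147). Kcna2 encodes Kv1.2, which joins Kv1.1 in axonal channels. It had 7.18, 7.47 and 8.52 RPKM against 7.68, 8.05 and 9.70 RPKM, overlapping ranges with a log2 change of 0.11 ± 0.06 (SE; limma, adjusted p = 0.288). Kcna6 averaged 9.38 and 8.52 RPKM (adjusted p = 0.197), Kcna4 3.41 and 3.36 RPKM (0.948), Kcna3 2.24 and 2.01 RPKM (0.328) and Kcna5 0.924 and 1.07 RPKM (0.482), APPPS1 first.

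Kcnb2, which encodes a delayed rectifier of the Shab family, averaged 2.10 ± 0.331 RPKM (SD, n = 6) and 2.06 ± 0.303 RPKM (SD, n = 7), a difference well within the spread (limma, adjusted p = 0.932).

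Shaw channels open fast at high voltage and let interneurons fire at high rates. Their 4 genes all had estimates below 0, also after centring and quantile normalization, and 0 of 4 were called, with 1 at an unadjusted p under 0.05 in limma. Of these, Kcnc4 had the largest difference, with 7.37 ± 0.546 RPKM (SD, n = 6) and 6.56 ± 0.659 RPKM (SD, n = 7) and a log2 change of -0.16 ± 0.07 (SE; limma, adjusted p = 0.149). Kcnc1, the Kv3.1 gene of fast-spiking cells, had 2.95, 3.43 and 4.01 RPKM in APPPS1 and 2.98, 3.05 and 3.41 RPKM in libraries without Apoe (adjusted p = 0.242). The values without Apoe lay inside the APPPS1 range. Kcnc2 averaged 6.37 RPKM in APPPS1 and 6.22 RPKM in libraries without Apoe. Its log2 change of -0.03 ± 0.06 (SE) was above 0 in 2 of 28 alternative fits. Of all 13343 genes tested 6981 had estimates below 0. Of 10 interneuron markers none was called, with sums of 726 to 937 RPKM and 718 to 1002 RPKM, and Pvalb, the marker of fast-spiking cells, ran from 37.5 to 51.9 RPKM and from 35.7 to 57.4 RPKM.

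The other Shal genes, which like Kcnd1 carry A-type current, gave no call. Kcnd2, encoding Kv4.2 of dendrites and at 13.5 RPKM the main Shal gene, had 12.2, 12.98 and 14.7 RPKM in APPPS1 and 12.6, 13.8 and 14.8 RPKM in libraries without Apoe. The groups overlapped almost wholly (log2 change 0.08 ± 0.05, SE; limma, adjusted p = 0.403). Kcnd3 averaged 2.57 and 2.58 RPKM. The summed Shal level was 17.7 ± 0.848 RPKM (SD, n = 6) and 18.1 ± 0.725 RPKM (SD, n = 7), so the called Kcnd1 was the smallest part of it.

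Channels of the M current, which restrains repetitive firing, also gave no call. Kcnq3 averaged 0.933 and 1.03 RPKM (limma, adjusted p = 0.508), and Kcnq5 3.77 and 3.67 RPKM (0.799). Among the 5 EAG, ERG and ELK genes Kcnh1 was the highest, with means of 7.52 and 7.04 RPKM (adjusted p = 0.405). Kcnh7 averaged 3.30 and 3.24 RPKM, Kcnh3 1.79 and 1.58 RPKM and Kcnh5 1.40 and 1.39 RPKM. Kcnh4 had 0.717, 0.888 and 1.23 RPKM in APPPS1 and 0.737, 0.906 and 1.14 RPKM in libraries without Apoe (adjusted p = 0.974). All 5 genes had estimates below 0, but after centring only 3 of 5 did and after quantile normalization 2 of 5.

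Silent subunits form no channel alone and change the gating of other voltage-gated pores. Of 7 genes 0 were called and 0 had an unadjusted p under 0.05 in limma, and they summed to 29.6 ± 2.05 RPKM (SD, n = 6) and 30.4 ± 1.85 RPKM (SD, n = 7). Kcnv1, the highest of them, had 12.3, 14.1 and 15.4 RPKM in APPPS1 and 11.3, 14.1 and 16.6 RPKM in libraries without Apoe. The medians were nearly equal, and the group without Apoe spread more widely on both sides (log2 change 0.04 ± 0.08, SE; limma, adjusted p = 0.835). Kcnf1 averaged 8.07 and 8.33 RPKM, Kcns2 2.51 and 2.52 RPKM and Kcns3 1.88 and 2.03 RPKM. Kcng1 averaged 1.30 and 1.33 RPKM, Kcns1 0.864 and 0.959 RPKM and Kcng4 0.984 and 0.827 RPKM.

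Of the single-span auxiliary subunits, which modify gating and traffic of voltage-gated pores, 2 passed the level and neither was called. Kcne1l is an older symbol of Kcne5 and had the largest estimate of all members. Its level was 2.35, 3.80 and 5.404 RPKM in APPPS1 and 2.13, 2.52 and 3.49 RPKM in libraries without Apoe. The groups overlapped, and APPPS1 libraries alone spanned more than the difference. The log2 change was -0.39 ± 0.14 (SE; limma, adjusted p = 0.104). Without APPPS1 replicate 4 it was -0.50 and called as lower (adjusted p = 0.0290), and without APPPS1 replicate 6, the library at 5.404 RPKM, it was -0.29 (adjusted p = 0.218). Kcne4 averaged 0.650 ± 0.197 RPKM (SD, n = 6) and 0.867 ± 0.227 RPKM (SD, n = 7), with an adjusted p of 0.224.

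Inward rectifiers numbered 11, of which 0 were called and 1, Kcnj3, had an unadjusted p under 0.05 in limma. They summed to 56.3 ± 1.98 RPKM (SD, n = 6) and 55.0 ± 1.19 RPKM (SD, n = 7). Kcnj10 encodes Kir4.1, the potassium-buffering channel of astrocytes and oligodendrocytes. It had 10.6, 12.8 and 13.7 RPKM in APPPS1 and 8.62, 11.5 and 12.1 RPKM in libraries without Apoe. The lowest values were those of APPPS1;Apoe-/- replicates 2 and 5, the low-App libraries, at 8.62 and 9.27 RPKM. The log2 change was -0.18 ± 0.08 (SE; limma, adjusted p = 0.201), and -0.08 (adjusted p = 0.556) without these libraries. With the striatal marker level in the fit it was -0.07 (adjusted p = 0.708). Kcnj16 encodes Kir5.1, which joins Kir4.1 in glia. It had 6.56, 7.43 and 8.05 RPKM in APPPS1 and 6.36, 7.36 and 7.86 RPKM in libraries without Apoe, ranges that nearly coincided (log2 change -0.01 ± 0.06, SE; limma, adjusted p = 0.939). Of 9 astrocyte markers 2, Sox9 and Aqp4, were lower and 1, Gjb6, was higher, with sums of 591 to 669 RPKM and 651 to 727 RPKM, and their part in the Kcnj10 values was not tested.

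The GIRK genes encode channels opened by G proteins downstream of inhibitory receptors. Kcnj3 averaged 10.2 ± 0.5997 RPKM (SD, n = 6) and 11.1 ± 0.655 RPKM (SD, n = 7), with a log2 change of 0.12 ± 0.05 (SE; limma, adjusted p = 0.179). Kcnj9 averaged 10.5 and 9.95 RPKM, and Kcnj6 1.28 and 1.23 RPKM. The classical strong rectifiers, which clamp cells near rest, averaged 3.30 and 2.92 RPKM for Kcnj4, 1.80 and 1.75 RPKM for Kcnj2 and 1.37 and 1.34 RPKM for Kcnj12. None of these values separated the groups.

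The ATP-sensitive pores link metabolism to excitability. Kcnj8 encodes Kir6.1, found in the brain mainly in pericytes. It had 1.08, 1.36 and 1.98 RPKM in APPPS1 and 0.957, 1.25 and 1.56 RPKM in libraries without Apoe (log2 change -0.08 ± 0.11, SE; limma, adjusted p = 0.708), overlapping ranges beside pericyte markers of which 0 of 8 tested were called. Kcnj11 encodes Kir6.2 of neurons and averaged 5.54 ± 0.554 RPKM (SD, n = 6) and 5.88 ± 0.190 RPKM (SD, n = 7), with an adjusted p of 0.404.

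Kcnj13 encodes Kir7.1, a channel of epithelia that is abundant in choroid plexus. It had 1.15, 1.35 and 1.77 RPKM in APPPS1 and 0.948, 1.40 and 2.84 RPKM in libraries without Apoe, with a log2 change of 0.06 ± 0.15 (SE; limma, adjusted p = 0.849). The top value was that of APPPS1;Apoe-/- replicate 5, alone above the others. Ttr, the defining transcript of choroid plexus, was also highest in that library, at 64.5 RPKM, where the APPPS1 libraries ran from 3.71 to 32.2 RPKM and the median of the libraries without Apoe was 11.1 RPKM. Kcne2, a KCNE gene of choroid plexus that lay below 0.5 RPKM, was highest there too, at 0.861 RPKM. In other libraries high Ttr and high Kcnj13 did not coincide. APPPS1 replicate 4 had the most Ttr of its group, 32.2 RPKM, but 1.34 RPKM of Kcnj13, below the group's median. APPPS1 replicate 2 had the most Kcnj13 of that group, 1.77 RPKM, with 7.37 RPKM of Ttr. APPPS1;Apoe-/- replicate 4 had the next highest Ttr of its group and the median Kcnj13, 1.40 RPKM. Of 4 choroid plexus and ependymal markers tested 1, Ccdc153, was called, as higher. The sums of the list ran from 64.7 to 111.3 RPKM in APPPS1 and from 85.0 to 162.9 RPKM in libraries without Apoe, and their part in the Kcnj13 values was not tested. Without APPPS1;Apoe-/- replicate 5 the change of Kcnj13 was -0.07 (limma, adjusted p = 0.741).

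Tandem-pore leak channels set the resting conductance, and 0 of their 7 genes were called, with 2 at an unadjusted p under 0.05 in limma. Their summed level was 44.6 ± 3.49 RPKM (SD, n = 6) and 50.4 ± 3.76 RPKM (SD, n = 7), with overlapping ranges of 41.2 to 49.4 and 46.3 to 55.3 RPKM. Kcnk1 encodes TWIK1 and had the highest level of all 58 genes. Its level was 25.6, 27.1 and 30.1 RPKM in APPPS1 and 27.9, 31.0 and 36.6 RPKM in libraries without Apoe. The ranges overlapped, and the log2 change of 0.20 ± 0.07 (SE) was not called (limma, adjusted p = 0.0746). It was called, as higher, after centring (0.23, adjusted p = 0.0401), with array weights (0.20, 0.0438), with a sex score in the fit (0.22, 0.0488) and without APPPS1;Apoe-/- replicate 3 (0.23, 0.0431). Without the low-App libraries it was 0.14 (adjusted p = 0.222), and with the striatal marker level in the fit 0.11 (adjusted p = 0.386).

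Kcnk2 encodes TREK1, a leak channel sensitive to stretch and lipids. It had 5.97, 6.87 and 9.63 RPKM in APPPS1 and 6.61, 8.89 and 10.9 RPKM in libraries without Apoe, with a log2 change of 0.25 ± 0.11 (SE; limma, adjusted p = 0.167). The ranges overlapped at both ends. APPPS1 replicate 3 stood at 9.63 RPKM, where the other APPPS1 libraries had at most 7.92 RPKM, and APPPS1;Apoe-/- replicate 4 was lowest of its group at 6.61 RPKM. APPPS1 replicate 3 also had the highest striatal marker sum of its group, 828.6 RPKM against at most 445 RPKM in the other APPPS1 libraries. In the APPPS1;Apoe-/- group replicate 4 had the lowest striatal sum, 441 RPKM, but replicate 5 had the highest, 935 RPKM, with 8.93 RPKM of Kcnk2, while replicate 2 led in Kcnk2 at 10.9 RPKM with a sum of 729 RPKM. With the striatal marker level in the fit the change of Kcnk2 was 0.05 (adjusted p = 0.803), and the part of striatal tissue in these values was not tested beyond that fit. Without the low-App libraries it was 0.17 (adjusted p = 0.395), and with the number of alignments in the fit 0.36 (adjusted p = 0.184).

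**Figure D4:**
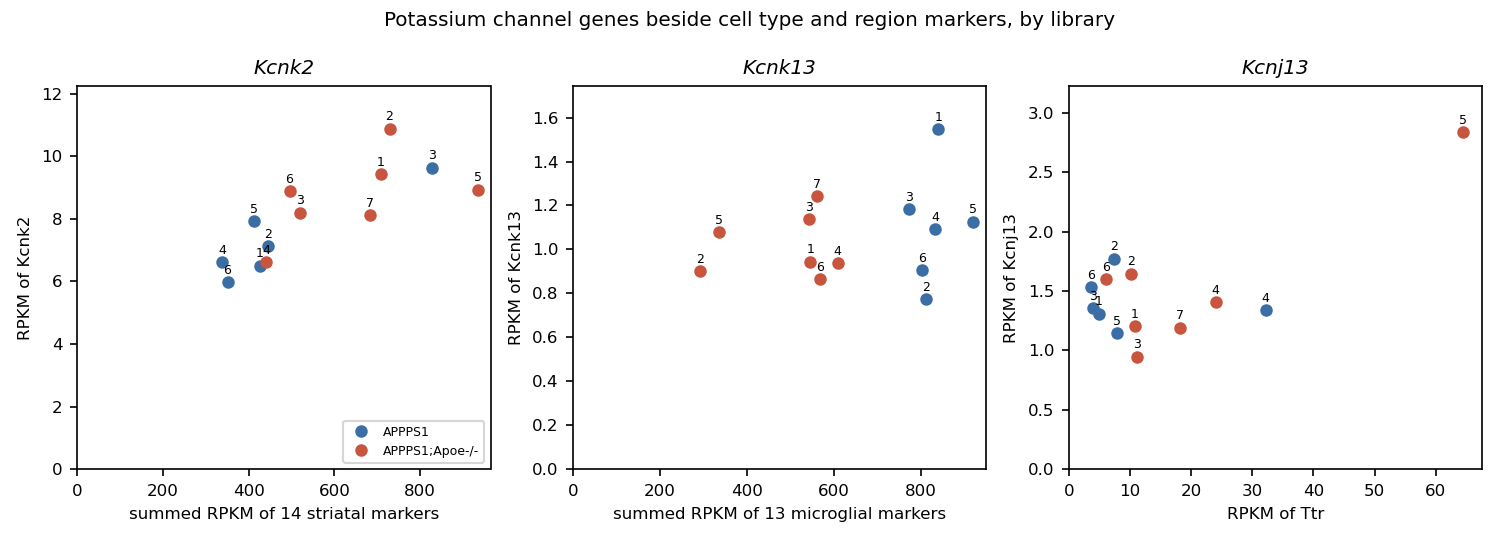
Level of Kcnk2, Kcnk13 and Kcnj13 in each library, in RPKM, against the summed RPKM of 14 striatal markers, that of 13 microglial markers and the RPKM of Ttr (blue, APPPS1; red, APPPS1;Apoe-/-; numbers, replicates). The microglial sums separate the groups (771 to 918 against 291 to 608 RPKM) while Kcnk13 does not, and APPPS1;Apoe-/- replicate 5 is alone at 64.5 RPKM of Ttr and 2.84 RPKM of Kcnj13.

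Kcnk13 encodes THIK1, the main background potassium channel of microglia. It had 0.774, 1.11 and 1.55 RPKM in APPPS1 and 0.866, 0.944 and 1.24 RPKM in libraries without Apoe. The values without Apoe lay inside the APPPS1 range, although 9 of 13 microglial markers were lower and their sums did not overlap. The log2 change was -0.07 ± 0.10 (SE; limma, adjusted p = 0.707), with a 95% interval from -0.28 to 0.14. The median change of the 13 microglial markers was -0.60. Both values include the low-App libraries, whose microglial sums were the lowest. Without these libraries the change of Kcnk13 was -0.06 (limma, adjusted p = 0.802). The estimate for Kcnk13 was close to 0 without APPPS1 replicate 1 (adjusted p = 0.994) and -0.14 without APPPS1 replicate 2 (adjusted p = 0.444). At a level near 1 RPKM the estimate is also held down by the added 0.5 RPKM. Of the remaining leak channels, Kcnk3 averaged 4.31 and 4.58 RPKM, Kcnk4 2.99 and 3.06 RPKM and Kcnk10 0.663 and 0.657 RPKM. Each of these differed by less than its spread. Kcnk9 averaged 0.620 ± 0.116 RPKM (SD, n = 6) and 0.498 ± 0.146 RPKM (SD, n = 7), and was not called (limma, adjusted p = 0.309). APPPS1;Apoe-/- replicate 1 had 0.810 RPKM of Kcnk9, where the others of its group had at most 0.511 RPKM.

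Kcnq1ot1 entered by its name but is a non-coding RNA transcribed antisense to Kcnq1 on chromosome 7. It had 1.03, 1.25 and 1.43 RPKM in APPPS1 and 0.753, 1.11 and 1.30 RPKM in libraries without Apoe, overlapping ranges with a log2 change of -0.14 ± 0.09 (SE; limma, adjusted p = 0.344). Whether reads were counted by strand is not given in the sources used here, so its reads and those of Kcnq1, which averaged 0.134 RPKM, cannot be told apart.

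Apoe lies on chromosome 7, and genes near it can carry sequence of the strain in which the knockout allele was made, which was not tested here. Within 30 Mb of Apoe 87 of 441 genes tested were called (19.7%), against 8.23% overall. Of the 3 members there none was called. Kcnc1 and Kcnj11 were among them, with adjusted p of 0.242 and 0.404 in limma. Leaving out all genes of this window kept Kcnt1 and Kcnd1 as the only called members. Kcnt1 lies on chromosome 2 and Kcnd1 on chromosome X, so their estimates could not change, and that fit cannot address carried sequence.

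Genes below 0.5 RPKM were tested only in a fit without the filter on level, in which 2 of 28 passed, both as lower, against 4.16% of 20915 genes, 2.47% as lower. Kcnk6, a tandem-pore gene inside the 30 Mb window around Apoe, had 0.409, 0.518 and 0.575 RPKM in APPPS1 and 0.178, 0.270 and 0.472 RPKM in libraries without Apoe. The groups overlapped, and the log2 change was -0.34 ± 0.08 (SE; limma, adjusted p = 0.0340). Kcnh8, an ELK gene on chromosome 17, had 0.109, 0.178 and 0.237 RPKM against 0.068, 0.105 and 0.135 RPKM, also overlapping (-0.17 ± 0.04, SE; limma, adjusted p = 0.0452). Levels this low rest on few reads, and the added 0.5 RPKM exceeds most of them. Kcnk6, Kcna7, Kcnj14 and Kcnn4 were the genes below 0.5 RPKM within that window.

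Partner genes of the channels were taken from 3 lists. Their values are those of the fit with genotype as its single term, and no alternative fit is given for them. Among auxiliary subunits and partners 23 of 27 were tested, 1 rose and none fell. Of all genes tested 3.48% were called higher and 4.74% lower. Calm2, one of the calmodulin genes and thus a sensor of SK and Kv7 channels, rose from 2114 ± 144 RPKM (SD, n = 6) to 2599 ± 265 RPKM (SD, n = 7), without overlap and with a log2 change of 0.29 ± 0.07 (SE; limma, adjusted p = 0.0162). Calm3, another calmodulin gene, had a log2 change of -0.13 and was not called (adjusted p = 0.257). The Kv4 partners did not pass, and Dpp6, Dpp10 and Kcnip1 to Kcnip4 had adjusted p of at least 0.478. The median change of this list was -0.004, that of all genes -0.008.

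Among voltage-gated sodium, calcium and HCN channel genes 26 of 29 were tested, 2 rose and none fell, against 3.48% and 4.74% of all genes. Cacnb4, an auxiliary subunit of calcium channels, rose from 18.4 ± 0.695 RPKM (SD, n = 6) to 22.6 ± 0.594 RPKM (SD, n = 7), without overlap (log2 change 0.28 ± 0.04, SE; limma, adjusted p = 5.58e-04). Scn1a, the sodium channel of interneuron axons, rose from 13.7 ± 1.48 RPKM (SD, n = 6) to 16.6 ± 1.51 RPKM (SD, n = 7), with overlap (0.27 ± 0.07, SE; limma, adjusted p = 0.0312). The list's median was -0.013. Among potassium pumps and cotransporters, which maintain the gradient, 12 of 13 were tested and none passed in limma. The smallest adjusted p was 0.0632, for Atp1b2, at -0.19 ± 0.06 (SE). The median of that list was -0.064. Its 13 genes summed to 805 to 858 RPKM in APPPS1 and 726 to 798 RPKM in libraries without Apoe. These ranges did not overlap, while those of the other lists of partner genes did, and no sum was tested.

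**Figure D5:**
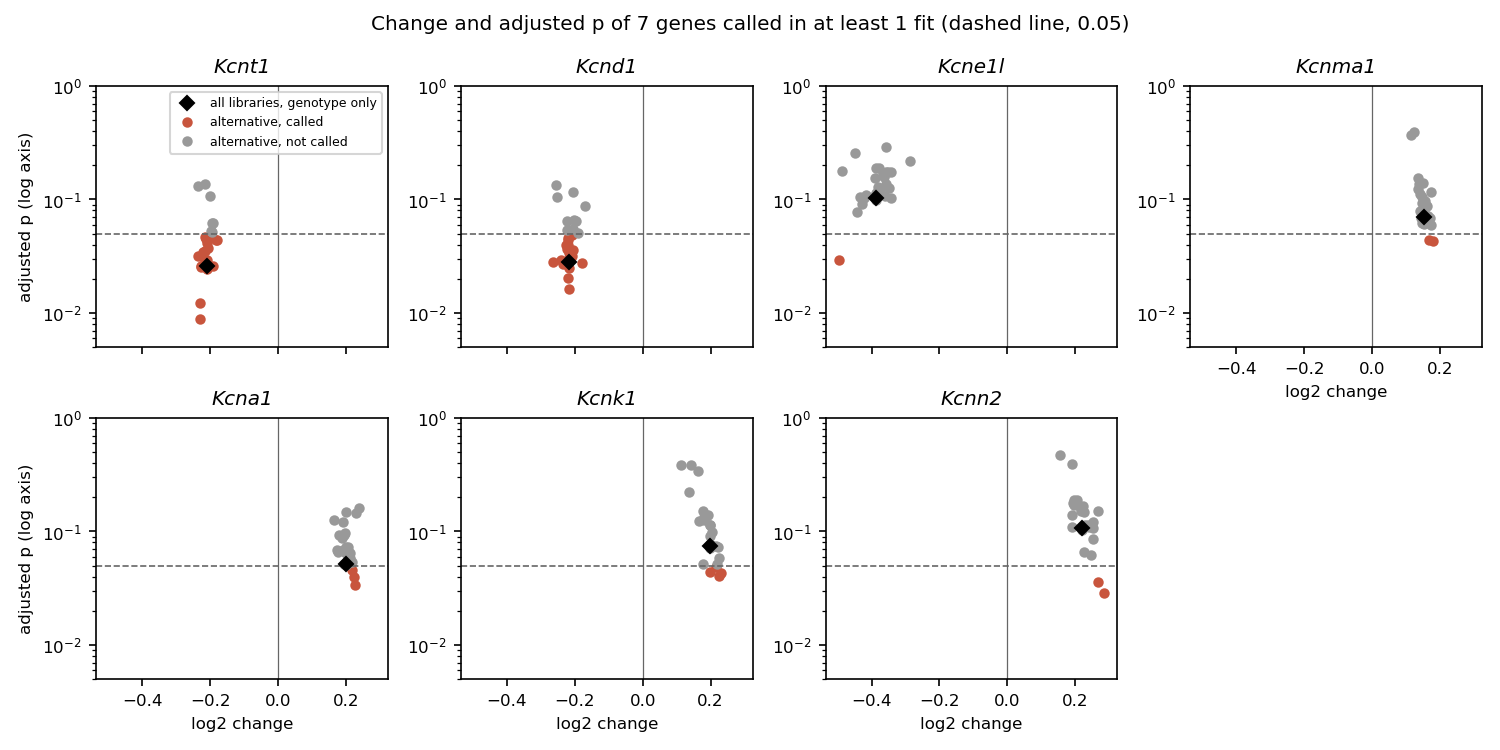
Log2 change (APPPS1;Apoe-/- minus APPPS1) and adjusted p (log axis) of 7 of the 8 genes called in at least 1 fit, in the fit to all libraries with genotype as its single term (black) and in 28 alternatives (red, called; grey, not called; dashed line, 0.05). Kcnt1 was called in 21 and Kcnd1 in 18 of the 28, and each gene drawn kept its sign in all.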

How the data were processed

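Cortical RNA of 6 APPPS1 and 7 APPPS1;Apoe-/- mice was sequenced after Trizol extraction with the Clontech SMARTer kit, per the labels' protocols. The authors deposited RPKM values per gene and a count of alignments per library. Partek and mm10 are named in the submitters' processing notes. The aligner, the annotation, strand use and the counting rule: each was not given in the sources used here. Division by depth and gene length hides the read counts, and the APPPS1;Apoe-/- libraries mostly had fewer alignments.

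Genotype was the single term of a limma 3.58.1 fit (mean-variance trend, R 4.3.3) to log2(RPKM + 0.5) of the 13343 genes whose mean reached 0.5 RPKM. Two-sided tests were used, with Benjamini-Hochberg adjustment over all genes tested and a threshold of 0.05. The code was tested on simulated data. P-values set the difference between the groups against the spread between these animals, with the variance of each gene moderated over all genes. Alternatives changed the pseudocount, filter, scaling, variance model and covariates, or left out libraries. The sex score was made from Xist and Y-linked genes. All 58 members matched GENCODE mouse release 21, from which positions and coding sequences come. Python 3.11.15 made tables and figures. The members, classes and lists were chosen with earlier results of these data known. Values by library are given for called members, the highest member of each class and a set list of well-known channels. Kcnt2, Kcnk2 and other members described in detail were chosen after their values were seen. A few genes and sequences are counted in the totals but not reported here.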

Additional observations from a re-analysis of the deposited data

Results flagged for a closer look

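A library far from the others of its group was looked for in 55 of the 58 genes and both groups, by the gap between the extreme value and its neighbour relative to the whole range. Of 110 such tests 3 were positive, and chance alone flags about 1 in 20. Kcnn2, the SK2 gene, was highest in APPPS1 replicate 5, at 3.19 RPKM, where the others ran from 2.18 to 2.50 RPKM. Kcnj13, the Kir7.1 gene, stood at 2.84 RPKM in APPPS1;Apoe-/- replicate 5, with the rest of that group between 0.948 and 1.65 RPKM. Kcnk9, the TASK3 leak channel gene, was highest in APPPS1;Apoe-/- replicate 1, at 0.810 RPKM, with the others between 0.371 and 0.511 RPKM.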

How the results depend on the processing

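Main count: 2 members lower (Kcnt1, Kcnd1) and 0 higher. Centring each library on its median gene gave 4, of which 1 was lower and 3 were higher, and quantile normalization gave 3, of which 1 was lower and 2 were higher. Over all genes the calls were 57.7% lower in the main fit, 43.1% after centring and 46.9% after quantile normalization, which moved the median gene by at most 0.026. Without both low-App libraries 1 member was called (Kcnt1). With the number of alignments as a covariate 0 were called (limma; 11 at an unadjusted p under 0.05), with the striatal marker level 0 (8 at that p) and with alignments but without the low-App libraries 0 (10 at that p); each of these fits has fewer residual degrees of freedom, and the number of genes called overall was 202, 414 and 281, against 1098. Leaving out 1 library at a time gave 0 to 4 called members; the 0 came without APPPS1 replicate 1 (11 at an unadjusted p under 0.05) and the 4 without APPPS1 replicate 5. The other pseudocounts, filters and variance models and the omission of genes near Apoe gave 2, and array weights and the sex score 3. The sex score likewise adds a term to the fit, and of all genes tested 1012 were called with it. Of the 58 genes 50 were called in no fit, and 35 had the same sign in every fit. No called value changed sign. The cause of the lost calls was not tested. The number of reads behind each value is unknown, so what depth limits could not be measured. No paired analysis was possible because the labels give each mouse its own number and none is shared between the groups.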
